A study of Homo sapiens with 6 samples.

Results

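The genes of glycolysis, gluconeogenesis and glucose transport were followed in hepatocellular carcinoma cells treated with fostamatinib. Members were 38 genes chosen by gene symbol. They encode glucose and lactate transporters, glycolytic enzymes and their regulators, lactate dehydrogenase, pyruvate dehydrogenase kinases and enzymes that take part in gluconeogenesis. Of the 38 genes, 34 were measured among 16305 genes. PFKFB1, G6PC, PCK1 and FBP1, of which the last 3 encode key gluconeogenic enzymes, were not analysed here. The study looked for drugs against sorafenib-resistant liver cancer, and this comparison asked how the transcriptome of resistant cells differed after fostamatinib, an oral prodrug of a SYK kinase inhibitor. RNA-seq was performed on Huh7-R cells (Huh7SR in the labels), a resistant pool derived from the human hepatocellular carcinoma line Huh7 by long exposure to sorafenib, a multikinase inhibitor, so that all samples share this history. The 2 groups held 3 samples each, collected after 24 h with DMSO, the vehicle, or with fostamatinib, and the labels give 2 µM for both. Nothing states that the samples of a group came from separate experiments, so the p-values measure the spread between samples, which may be technical. Because the RNA came from whole cultures, fewer cells expressing a gene and less RNA per cell cannot be told apart.

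Glycolysis splits glucose into pyruvate in the cytosol, and lactate dehydrogenase converts pyruvate to lactate, which leaves the cell through monocarboxylate transporters. Gluconeogenesis, a main task of hepatocytes, runs the reversible steps backwards and bypasses the irreversible ones with other enzymes. These are pyruvate carboxylase, phosphoenolpyruvate carboxykinase, fructose bisphosphatase and glucose 6-phosphatase. Many steps have a liver isozyme and a form used by most other tissues, and liver tumours often carry less of the first and more of the second.

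Depth was 13303451 to 15272737 reads per sample over the genes kept by the authors' filter. Levels are given as CPM, read counts relative to library size after scaling by the trimmed mean of M-values (TMM), and changes as the log2 fold change of fostamatinib over DMSO with its SE, from limma with p-values adjusted over all 16305 genes. A gene was called changed at an adjusted p below 0.05. Each read count covers the exons of the whole gene, and 0.5 read was added before taking logs, which understates the fold change of genes with few reads. Gene positions are those of GENCODE v44 mapped to GRCh37, the build of the files. As a check of the cell type, reads were found for all 13 hepatocyte markers listed, ALB and TTR among them. Their summed level was 5125 to 5460 CPM with DMSO and 6955 to 7364 CPM with fostamatinib. AFP gave the largest part of that sum, with a mean of 1913 CPM in DMSO. APOA1, APOA2 and APOC3 had few reads in DMSO, with means of 21.7, 21.0 and 16.3. Each of the 13 was called higher after fostamatinib, beside 23.3% of all genes, with a median log2 fold change of 0.55. Of 9 markers of other cell types, 5 were measured. Of these, 2 were called higher and 1 lower, beside 23.3% and 24.5% of all genes. Their summed level was 176 to 182 CPM in DMSO and 212 to 222 CPM in fostamatinib. PTPRC, CD68, VWF and ACTA2 were not analysed here. What part the rise of hepatocyte markers has in the values that follow was not tested.

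After fostamatinib, 24 of the 34 members were called changed, or 70.6%, beside 47.8% of all genes. Lower levels were called for 18 members, beside 24.5% of all genes, and higher levels for 6, beside 23.3%. The median log2 fold change of the members was -0.24, beside 0.0015 over all genes, and in 26 members the samples of the groups did not overlap, which held for 54.1% of all genes. PKLR and SLC2A2, both with few reads, entered the table only through their reads in the fostamatinib samples and had to differ. Among the 32 members that passed the read filter in both groups, 4 were called higher and 18 lower. A refit to the 15126 genes that passed this filter called 3637 genes higher and 3899 lower, with 4 members higher and 19 lower. The list as a whole therefore leaned downwards, but its steps differed in size and direction: SLC2A1, HK1, PGK1 and both enolases fell, HK2, ALDOA and GAPDH were not called, and pyruvate carboxylase and PDK4 rose.

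**Figure D1:**
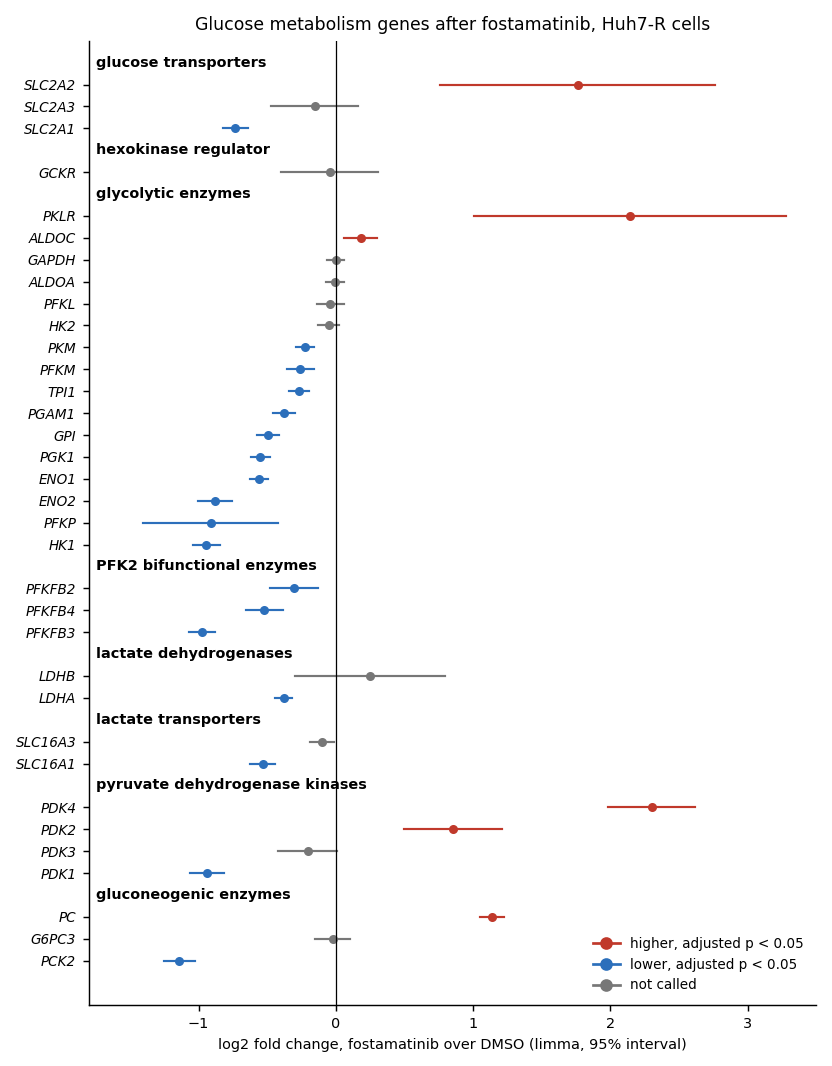
Log2 fold change of fostamatinib over DMSO for the 34 members measured (x axis), grouped by role, with points for the limma estimate and bars for the 95% interval (n = 3 samples a group). Blue marks the 18 members called lower, red the 6 called higher and grey the 10 not called; the longest bars belong to PKLR and SLC2A2, which had the fewest reads.

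Promoter sequence is shown for the members with a single annotated start that fell or rose most, among those called, with at least 50 reads in a group and no overlap between groups. The sequences are the 250 bases before the RefSeq start in GRCh38.p14, written 5′ to 3′ on the gene's strand. Capitals mark 4 motifs searched on both strands: ACGTG and GCGTG, the cores bound by hypoxia-inducible factors, CACGTG, the E-box bound by MYC and by ChREBP with its partner MLX, which contains ACGTG on both strands, and TGATGNAA, the core bound by ATF4. The 3 members that fell are PCK2 (chr14:24094061-24094310, plus strand), ENO2 (chr12:6914330-6914579, plus strand) and SLC2A1 (chr1:42958869-42959118, minus strand). The members that rose are PDK4 (chr7:95596517-95596766, minus strand) and ALDOC (chr17:28576896-28577145, minus strand).
PCK2: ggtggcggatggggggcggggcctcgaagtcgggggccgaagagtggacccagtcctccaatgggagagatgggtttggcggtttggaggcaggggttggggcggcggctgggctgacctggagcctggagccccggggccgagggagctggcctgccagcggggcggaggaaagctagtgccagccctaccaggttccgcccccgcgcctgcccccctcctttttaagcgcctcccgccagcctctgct
ENO2: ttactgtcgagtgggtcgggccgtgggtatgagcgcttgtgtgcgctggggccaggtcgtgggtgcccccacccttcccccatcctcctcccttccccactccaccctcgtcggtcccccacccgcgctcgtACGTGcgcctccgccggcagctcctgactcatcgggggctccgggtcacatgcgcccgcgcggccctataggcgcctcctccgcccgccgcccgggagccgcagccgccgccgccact
SLC2A1: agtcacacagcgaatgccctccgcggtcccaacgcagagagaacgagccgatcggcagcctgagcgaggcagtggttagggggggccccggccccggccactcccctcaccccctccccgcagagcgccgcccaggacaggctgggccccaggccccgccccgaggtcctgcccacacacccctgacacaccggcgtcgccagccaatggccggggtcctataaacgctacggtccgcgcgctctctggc
PDK4: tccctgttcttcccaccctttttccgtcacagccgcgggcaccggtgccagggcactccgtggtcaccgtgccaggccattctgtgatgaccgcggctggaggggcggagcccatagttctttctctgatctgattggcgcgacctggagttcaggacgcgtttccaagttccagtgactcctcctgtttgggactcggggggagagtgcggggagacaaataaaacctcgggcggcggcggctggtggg
ALDOC: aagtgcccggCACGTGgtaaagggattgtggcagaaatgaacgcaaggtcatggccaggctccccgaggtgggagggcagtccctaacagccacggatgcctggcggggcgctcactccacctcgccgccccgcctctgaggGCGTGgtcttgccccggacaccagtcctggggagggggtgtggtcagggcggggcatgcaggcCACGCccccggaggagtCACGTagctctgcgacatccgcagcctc

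The printed windows of PCK2, SLC2A1 and PDK4 hold none of the motifs. ENO2, which fell, has ACGTG at -118 from its start, and SLC2A1, which also fell, has GCGTG only at 25, past the printed stretch. ALDOC, which rose, has the most matches, with CACGTG at -240, GCGTG at -108 and -45 and ACGTG at -28. Windows of 300 bases, from 250 before to 50 after the start, were found for 31 of the 34 members, 64 windows in all, and PFKFB2, SLC16A1 and SLC2A3 had none. ACGTG was found in 39.1% of the members' windows and 25.3% of the 15211 windows of all genes tested, and GCGTG in 32.8% and 47.4%. One or the other was present in 59.4% of the members' windows and in 59.8% of all windows. By call, it was present in 19 of 35 windows of the members that fell (54.3%), 4 of 11 of those that rose (36.4%) and 15 of 18 of those not called (83.3%). CACGTG was found in 17.2% of the members' windows and 9.24% of all windows, and TGATGNAA in 3.13% and 2.14%. A match is a string of letters, not a bound site, and genes with several starts count more than once.

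Glucose entry is carried by the SLC2A (GLUT) transporters. SLC2A1 (GLUT1, chr1:43391024-43424564, minus strand), the basal transporter of most tissues and of many tumours, was at 172.7, 176.7 and 165.2 CPM with DMSO and 101.9, 103.5 and 104.1 CPM with fostamatinib. All 3 fostamatinib samples lay below all DMSO samples, a fall of 39.8% (log2 fold change -0.73, SE 0.0439, limma adjusted p = 3.26e-16). SLC2A2 (GLUT2), the transporter of hepatocytes, had 2, 7 and 3 reads in DMSO and 8, 13 and 18 in fostamatinib. The groups do not overlap, but the gene passed the read filter only through the fostamatinib samples, so its reads are given as a description and its call is no evidence of a change. SLC2A3 (GLUT3), the high-affinity form of neurons, was not called, with a 95% interval of the log2 fold change from -0.47 to 0.16. Per kb of exon, SLC2A1 made up 97.1% of the sum of these transporters in DMSO and 94.5% in fostamatinib, so the gene that fell remained by far the most abundant of them.

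Hexokinases trap glucose in the cell as glucose 6-phosphate. HK1 (chr10:71029740-71161640, plus strand), the form of most tissues, fell by 48.0%, from 134.3, 147.6 and 137.1 CPM to 73.4, 69.6 and 74.7 CPM (log2 fold change -0.94, SE 0.049, limma adjusted p = 6.43e-18). HK2, the insulin-regulated form that many tumours use, was at 246.9, 245.9 and 240.2 CPM in DMSO and 233.7, 233.4 and 239.4 CPM in fostamatinib. The samples of HK2 did not overlap, yet the difference was small and not called (log2 fold change -0.05, 95% interval -0.13 to 0.02, limma adjusted p = 0.266). Per kb of exon HK1 accounted for 31.9%, 34.1% and 32.9% of the sum of both in DMSO and for 21.3%, 20.4% and 21.2% in fostamatinib, and HK2 for the rest. GCKR, the protein that holds glucokinase inactive in the liver nucleus, was low, at 3.67 to 4.32 CPM in DMSO and 3.38 to 4.34 CPM in fostamatinib, and was not called (95% interval of the log2 fold change -0.40 to 0.31).

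**Figure D2:**
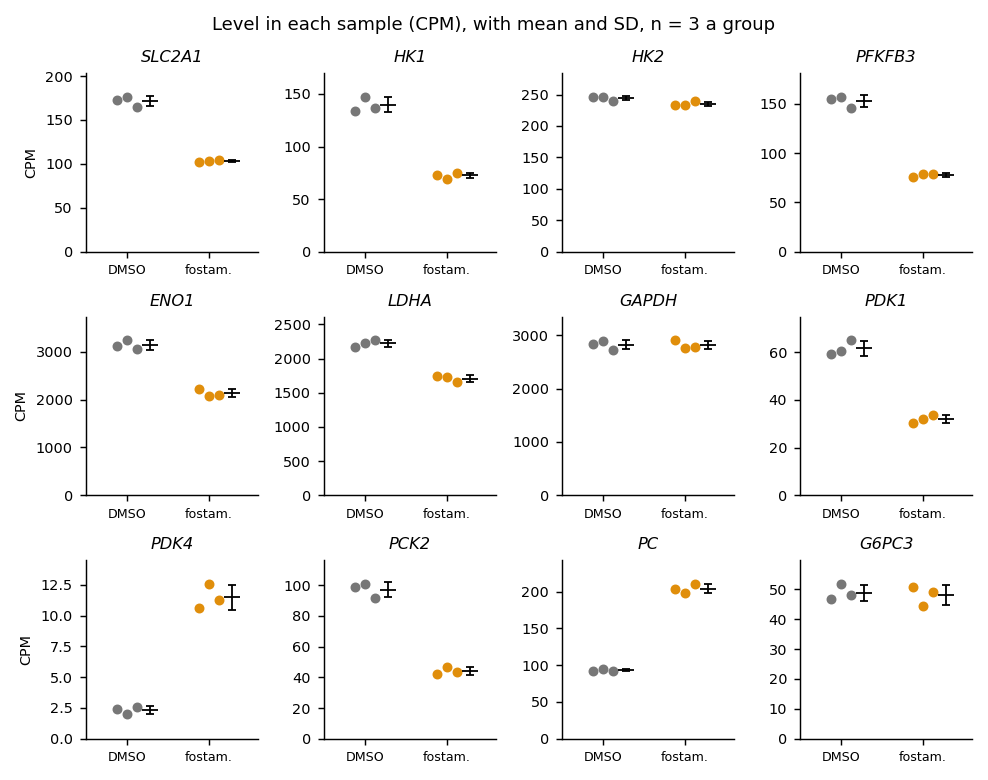
Level in CPM (y axis, from 0) in each sample for 12 members, with DMSO samples in grey, fostamatinib samples in orange, and the mean and SD of each group beside the points (n = 3). SLC2A1, HK1, PFKFB3, ENO1, LDHA, PDK1 and PCK2 have all fostamatinib samples below the DMSO samples, PDK4 and PC have them above, and GAPDH and G6PC3 overlap; the samples of HK2 lie close together without overlapping.

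Of the 16 glycolytic enzymes, 15 passed the read filter in both groups, all but PKLR. Of these 15, 10 were called lower, beside 24.5% of all genes, 1 higher, beside 23.3%, and 4 were not called, with a median log2 fold change of -0.27. In the refit to the 15126 genes that passed in both groups, 3899 were called lower and 3637 higher. Early in the pathway, GPI, which interconverts glucose 6-phosphate and fructose 6-phosphate, fell by 29.2%, from 313.4, 340.6 and 324.8 CPM to 238.6, 227.2 and 227.2 CPM (log2 fold change -0.50, SE 0.0397, limma adjusted p = 6.83e-13). Phosphofructokinase, the committing step, is built from liver (PFKL), muscle (PFKM) and platelet (PFKP) subunits. PFKL was at 109.1, 104.2 and 100.1 CPM in DMSO and 102.0, 100.4 and 102.3 CPM in fostamatinib, which overlap (95% interval of the log2 fold change -0.14 to 0.06). PFKM fell by 16.6%, from 107.8, 113.3 and 108.8 CPM to 94.3, 86.5 and 94.5 CPM (limma adjusted p = 2.65e-05). PFKP was scarce, with 37, 38 and 50 reads in DMSO and 18, 18 and 26 in fostamatinib, and was called lower (log2 fold change -0.91, SE 0.243, limma adjusted p = 0.00207). SENP1, which overlaps PFKM on the other strand, had 37.7% as many reads as PFKM in DMSO and was also lower (log2 fold change -0.18). The strand setting of the authors' counting is not given in the sources used here, so reads of overlapping genes on opposite strands may not have been kept apart.

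Aldolase splits fructose bisphosphate. ALDOA, the form of muscle and most other tissues, was at 1119, 1174 and 1082 CPM in DMSO and 1145, 1104 and 1110 CPM in fostamatinib, and the groups overlapped (95% interval of the log2 fold change -0.08 to 0.06). ALDOC, the brain form, was the single one of these 15 called higher, with 46.7, 48.4 and 48.5 CPM in DMSO and 50.6, 55.5 and 56.9 CPM in fostamatinib (log2 fold change 0.18, SE 0.0587, limma adjusted p = 0.0105). That small rise was no longer called without fostamatinib replicate 2 (adjusted p = 0.0535) or replicate 3 (adjusted p = 0.0786), or without the mean-variance trend (adjusted p = 0.0644). TPI1, which interconverts the triose phosphates, fell by 17.0%, with 746.0, 770.1 and 717.4 CPM in DMSO against 639.6, 611.7 and 602.2 CPM in fostamatinib (limma adjusted p = 6.85e-08).

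In the steps that yield ATP and NADH, GAPDH, which oxidises glyceraldehyde 3-phosphate and often serves as a reference gene, was at 2845, 2901 and 2731 CPM in DMSO and 2911, 2766 and 2782 CPM in fostamatinib. Its groups overlapped, and the 95% interval of its log2 fold change ran from -0.07 to 0.06, a range that leaves out falls of the size seen at the next steps. PGK1, which forms the first ATP, fell by 31.7%, from 516.5, 533.5 and 523.7 CPM to 361.0, 358.7 and 354.9 CPM (log2 fold change -0.55, SE 0.0349, limma adjusted p = 1.53e-15). PGAM1, the mutase after it, was at 375.3, 385.0 and 354.0 CPM in DMSO and 290.4, 284.0 and 282.3 CPM in fostamatinib, a fall of 23.1% (limma adjusted p = 2.33e-10). Enolase then makes phosphoenolpyruvate. ENO1 (chr1:8921059-8939249, minus strand), its form in most tissues, dropped from 3122, 3244 and 3056 CPM to 2227, 2074 and 2091 CPM, with no overlap (log2 fold change -0.56, SE 0.0327, limma adjusted p = 1.68e-16). ENO2, the neuronal form, fell by 45.8%, from 81.9, 77.2 and 68.6 CPM to 42.7, 40.9 and 39.5 CPM (log2 fold change -0.88, SE 0.061, limma adjusted p = 1.53e-14). Several of these genes have near-identical pseudogenes, and 11 such copies of 6 members in the table carried at most 1.82% as many reads as their member; PGAM4, a retained copy of PGAM1 that lies inside PGK1, had 1.81% as many reads as PGK1 in DMSO.

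Pyruvate kinase ends the pathway. PKM, the form of muscle and tumours, was at 2611, 2733 and 2604 CPM in DMSO and 2338, 2218 and 2235 CPM in fostamatinib, a fall of 14.5% without overlap (log2 fold change -0.23, SE 0.0317, limma adjusted p = 2.23e-07). PKLR, the form of liver and red blood cells, had 2, 1 and 4 reads in DMSO and 10, 13 and 8 in fostamatinib. The groups do not overlap, but PKLR too passed the read filter only through the fostamatinib samples, and its reads are likewise a description. It made up 0.0937% of pyruvate kinase per kb of exon after fostamatinib, beside 0.0200% in DMSO. HCN3 overlaps PKLR on the other strand and had a mean of 80.0 reads in DMSO and 89.3 in fostamatinib, many more than PKLR itself.

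**Figure D3:**
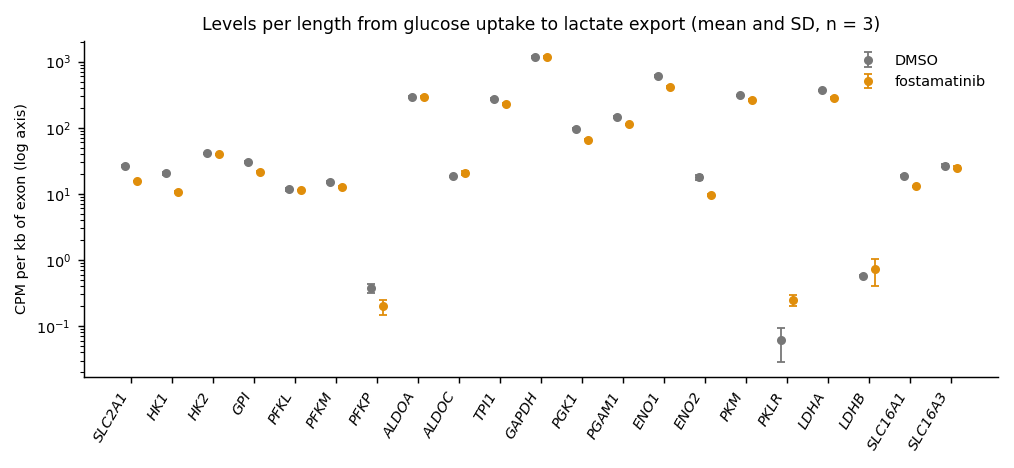
Level per kb of exon (y axis, log scale, CPM per kb) of 21 members in the order from glucose uptake to lactate export, as mean and SD of 3 DMSO (grey) and 3 fostamatinib (orange) samples. GAPDH was highest, at 1179 CPM per kb in DMSO, followed by ENO1 at 602.2 CPM per kb, and PKLR was lowest, at 0.0613 CPM per kb.

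Levels per kb of exon ranged widely along the pathway. GAPDH led in both groups, with 1179 ± 36.0 CPM per kb in DMSO and 1177 ± 33.0 in fostamatinib (SD, n = 3). In DMSO the next were ENO1, at 602.2 ± 18.3 CPM per kb and 408.5 ± 16.1 in fostamatinib, LDHA, at 368.8 ± 7.92 and 283.2 ± 7.61, and PKM, at 309.1 ± 8.49 and 264.1 ± 7.57. ALDOA followed at 293.9 ± 12.02 CPM per kb in DMSO, where its samples overlapped those of PKM above it and of TPI1 (275.7 ± 9.77) below it. After fostamatinib ALDOA, at 292.4 ± 5.79 CPM per kb, had the next level after ENO1, and its samples overlapped those of LDHA. Together the 16 glycolytic enzymes took 1.25%, 1.28% and 1.21% of all reads after DMSO and 1.07%, 1.02% and 1.03% after fostamatinib.

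The PFK2 bifunctional enzymes make and break a signalling fructose bisphosphate, distinct from the intermediate of the pathway, that activates phosphofructokinase and inhibits fructose bisphosphatase. All 3 that were measured fell. PFKFB3 (chr10:6186897-6296607, plus strand), the form with the strongest kinase activity, was at 154.8, 157.4 and 145.9 CPM in DMSO and 75.7, 78.5 and 79.0 CPM in fostamatinib, a fall of 49.1% (log2 fold change -0.97, SE 0.0467, limma adjusted p = 7.32e-19). PFKFB4 fell by 30.3%, from 46.9, 49.8 and 44.1 CPM to 31.6, 31.0 and 35.6 CPM (limma adjusted p = 4.31e-08). PFKFB2, the heart form, fell by 19.1%, from 19.99, 18.4 and 20.7 CPM to 16.1, 16.2 and 15.4 CPM (limma adjusted p = 0.00324), and YOD1, on the other strand, had 178% as many reads in DMSO. PFKFB3 made up 72.2% of the 3 per kb of exon in DMSO and 64.8% in fostamatinib, while the share of PFKFB4 was 22.2% and 27.3%. PFKFB1, the liver form, was not analysed here.

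At the end of the pathway, LDHA, the lactate dehydrogenase subunit that favours lactate formation, fell by 23.2%, from 2175, 2220 and 2271 CPM to 1738, 1728 and 1654 CPM (log2 fold change -0.38, SE 0.0315, limma adjusted p = 1.83e-12). LDHB, the heart subunit, was close to absent, with 23, 26 and 25 reads in DMSO and 24, 46 and 19 in fostamatinib. One fostamatinib sample was high and the others were at the DMSO level, and the gene was not called (95% interval of the log2 fold change -0.30 to 0.80). Lactate leaves through SLC16A1 (MCT1) and SLC16A3 (MCT4), the second of which serves highly glycolytic cells. SLC16A1 fell by 31.0%, from 119.9, 120.9 and 118.8 CPM to 81.7, 82.6 and 83.9 CPM (log2 fold change -0.53, SE 0.046, limma adjusted p = 4.99e-12). SLC16A1-AS1, an antisense gene with 9.26% as many reads, fell too (log2 fold change -0.85). SLC16A3 was at 243.9, 257.1 and 234.3 CPM in DMSO and 240.5, 217.8 and 227.7 CPM in fostamatinib, which overlap, and missed the threshold narrowly (log2 fold change -0.10, 95% interval -0.19 to -0.01, limma adjusted p = 0.0512). It was called lower in 8 of the alternative settings, with adjusted p from 0.00882 to 0.0482, and CSNK1D, which overlaps it on the other strand with 48.6% as many reads, was higher (log2 fold change 0.24). Per kb of exon, SLC16A1 made up 41.6% of both transporters in DMSO and 34.5% in fostamatinib.

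Pyruvate dehydrogenase kinases switch off the entry of pyruvate into the mitochondrial citric acid cycle. PDK1 (chr2:173420101-173473397, plus strand), a known target of hypoxia-inducible factor, fell by 47.9%, from 59.3, 60.5 and 65.2 CPM to 30.5, 32.0 and 33.8 CPM (log2 fold change -0.94, SE 0.0618, limma adjusted p = 4.03e-15). PDK4 (chr7:95212811-95225828, minus strand), the form induced in fasting, rose 4.92-fold, from 2.43, 2.00 and 2.59 CPM to 10.6, 12.6 and 11.3 CPM (log2 fold change 2.30, SE 0.155, limma adjusted p = 8.23e-15). Opposite directions were thus called for these 2 kinases, each with no overlap between groups. PDK2, the most widely expressed form in normal tissues, rose 1.81-fold, from 45, 73 and 42 reads to 91, 81 and 93 reads (limma adjusted p = 0.000101). PDK3 was at 11.8, 11.5 and 12.5 CPM in DMSO and 11.2, 10.2 and 9.70 CPM in fostamatinib, without overlap, and was not called (log2 fold change -0.21, 95% interval -0.42 to 0.01, limma adjusted p = 0.11).

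**Figure D4:**
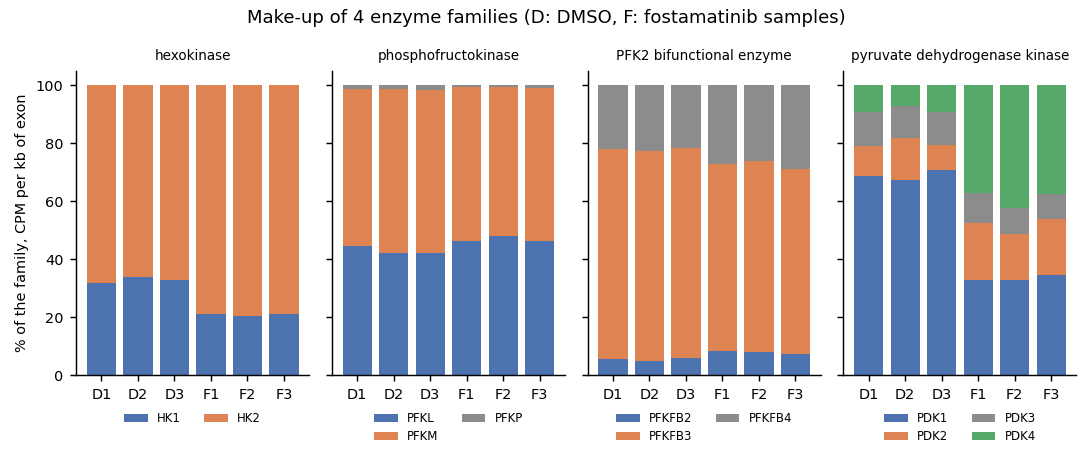
Share of each member in its family (y axis, percent of the summed CPM per kb of exon) in the 3 DMSO (D) and 3 fostamatinib (F) samples, for hexokinases, phosphofructokinases, PFK2 bifunctional enzymes and pyruvate dehydrogenase kinases. HK1 went from 33.0% to 21.0% of hexokinase, PDK1 from 69.0% to 33.4% and PDK4 from 8.56% to 39.1% of the kinases, as group means.

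The make-up of the kinase family changed accordingly in every sample. PDK1 made up 68.8%, 67.3% and 70.8% of the 4 kinases per kb of exon in DMSO and 32.9%, 32.9% and 34.5% in fostamatinib. PDK4 went from 9.22%, 7.27% and 9.20% to 37.3%, 42.3% and 37.6%, and per kb it was the largest of the 4 in all 3 fostamatinib samples. That order rests on the annotated exon lengths, 14845 bases for PDK1 and 4544 for PDK4, which cover all annotated transcripts. In CPM, without division by length, PDK1 stayed above PDK4 after fostamatinib, with means of 32.1 and 11.5 CPM. As group means, PDK2 went from 11.1% to 18.3% and PDK3 from 11.4% to 9.19%. These shares describe RNA levels and say nothing of kinase activity.

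Gluconeogenic enzymes did not share a direction. PC (chr11:66615888-66725857, minus strand), pyruvate carboxylase, which makes oxaloacetate from pyruvate in mitochondria, was at 92.1, 94.6 and 92.0 CPM in DMSO and 203.3, 198.2 and 210.9 CPM in fostamatinib, a rise of 2.20-fold (log2 fold change 1.14, SE 0.0435, limma adjusted p = 1.18e-21). PCK2 (chr14:24563262-24579807, plus strand), the mitochondrial phosphoenolpyruvate carboxykinase, which takes oxaloacetate on to phosphoenolpyruvate, went the other way and fell by 54.7%, from 98.8, 101.1 and 91.4 CPM to 41.9, 46.8 and 43.3 CPM (log2 fold change -1.14, SE 0.0561, limma adjusted p = 1.4e-18). In neither gene did the groups overlap. G6PC3, the glucose 6-phosphatase subunit of most tissues, was at 46.6, 51.9 and 48.0 CPM in DMSO and 50.7, 44.4 and 49.2 CPM in fostamatinib, which overlap (95% interval of the log2 fold change -0.15 to 0.10); HDAC5, on its other strand, had 86.0% as many reads and was higher (log2 fold change 0.58). With 3 of 6 gluconeogenic enzymes measured, 1 called higher, 1 lower and 1 not, the median log2 fold change of -0.02 is that of G6PC3 and changed sign when single samples were left out, from -0.06 to 0.03. The median of all 16 glycolytic enzymes, PKLR included, stayed between -0.29 and -0.24. With all samples it was -0.27 for the 15 that passed the read filter in both groups. The liver forms of the gluconeogenic enzymes were not analysed here, so the pathways could be compared only through these 3 genes.

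Liver isozymes were next set against the forms of other tissues. Of the 15 members with a ubiquitous or other-tissue form, 10 were called lower, beside 24.5% of all genes, 1 higher, beside 23.3%, and 4 were not called. Their median log2 fold change was -0.38. The 15 members put in neither class also leaned downwards, with 8 called lower, 3 higher and 4 not called (median -0.27). Of 8 members classed as liver forms, GCKR among them though it is a hexokinase regulator, 4 were measured. PFKL and GCKR were not called, and SLC2A2 and PKLR, higher after fostamatinib, passed the read filter only through that group, so no count or median of the liver forms is read here. Liver-to-other ratios could be formed for 5 of 9 pairs. The log2 ratio of PFKL to PFKM was 0.02, -0.12 and -0.12 in DMSO and 0.11, 0.21 and 0.11 in fostamatinib, higher by 0.22, and PFKL to PFKP was higher by 0.87. In both of these pairs PFKL itself was not called and the other subunit was called lower. Neither ratio overlapped between groups, and both share PFKL. The 54.1% of all genes without overlap counts single genes, and no such share was computed for ratios. Each ratio reached p = 0.10 in a two-sided exact permutation test, the smallest value that 3 against 3 samples allow. It was also 0.10 after adjustment over the 5 pairs, which include the pairs that follow. The ratio of PKLR to PKM was higher by 2.37 and those of SLC2A2 to SLC2A1 and to SLC2A3 by 2.49 and 1.92. The read filter selected the liver forms of these pairs, so their ratios are a description and their test results are not read.

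Regulators of these genes were examined as a list of 17, made of transcription factors and cofactors together with TXNIP and ARRDC4, which are neither. Of the 17, 8 were called lower, beside 24.5% of all genes, 7 higher, beside 23.3%, and 2 were not called. Both TXNIP and ARRDC4 are among the 8. One of the 8, ARRDC4, passed the read filter only through the DMSO samples, where it was higher. HIF1A, the hypoxia-inducible factor that drives many glycolytic genes, fell from 690, 687 and 712 CPM to 345, 337 and 354 CPM (log2 fold change -1.01, SE 0.035, limma adjusted p = 6.56e-23). Its relative EPAS1 (log2 fold change -0.66) fell as well, while ARNT, the partner of both, rose (0.33). MYC, another activator of glycolytic genes, fell from 92.7, 91.2 and 84.3 CPM to 57.4, 55.4 and 59.8 CPM (log2 fold change -0.64, limma adjusted p = 2.62e-12). ATF4, the factor of the amino acid response, was at 523, 521 and 494 CPM in DMSO and 325, 322 and 309 CPM in fostamatinib (log2 fold change -0.69, limma adjusted p = 1.61e-17). Some members are listed by textbooks as targets of HIF1A or MYC, and those named here were picked by hand, not as a full list. Of them, SLC2A1, PDK1, PFKFB3, ENO1 and LDHA were called lower, and HK2, ALDOA, GAPDH and SLC16A3 were not called. The split between them depends on that choice. Whether the regulators bear on these values was not tested.

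MLXIPL (ChREBP), the glucose-sensing factor of liver that drives PKLR, rose from 26, 15 and 17 reads to 105, 127 and 109 reads (log2 fold change 2.65, SE 0.21, limma adjusted p = 4.68e-13). Its partner MLX (95% interval of the log2 fold change -0.09 to 0.17) and its relative MLXIP (-0.21 to 0.01) were not called. TXNIP, a known target of these factors that limits glucose uptake, was slightly lower (log2 fold change -0.24), and its relative ARRDC4 had 9, 3 and 8 reads in DMSO and 1, 2 and 1 in fostamatinib. Of the factors known to activate gluconeogenic genes in fasting, PPARGC1A (log2 fold change 0.92), FOXO1 (0.88), CREB3L3 (1.58) and NR3C1, the glucocorticoid receptor (0.53), rose, and CEBPB (-0.83) fell. HNF4A, a master factor of hepatocytes, rose from 149, 152 and 150 CPM to 305, 304 and 306 CPM (log2 fold change 1.02, SE 0.039, limma adjusted p = 8.4e-22). SREBF1, a factor of lipid synthesis, fell (log2 fold change -0.32).

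**Figure D5:**
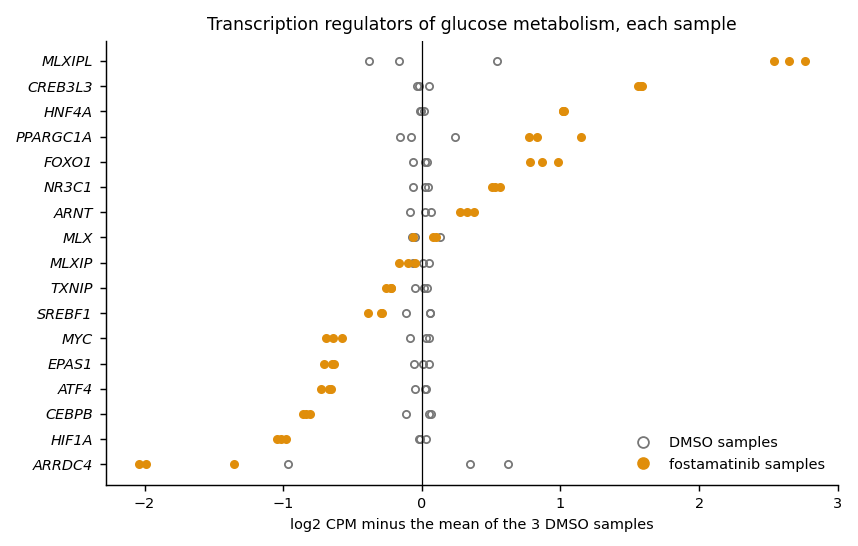
Level of the 17 listed regulators, TXNIP and ARRDC4 included, in each sample, as log2 CPM minus the mean of the 3 DMSO samples (x axis). DMSO samples are open circles and fostamatinib samples filled circles. The fostamatinib samples of MLXIPL and CREB3L3 lie farthest to the right and those of ARRDC4 farthest to the left; MLX and MLXIP overlap between groups.

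Neighbouring pathways were read from lists of genes outside the 38. Over all genes, 24.5% were called lower and 23.3% higher, and the counts below can be read beside these shares. Of 16 other glycolytic and hexose genes measured, 7 were called lower, 4 higher and 5 were not, with a median log2 fold change of -0.03. The largest falls were those of the lactate and pyruvate transporter SLC16A7 (-0.51), the phosphopentomutase PGM2 (-0.45) and the hexokinase-like HKDC1 (-0.44), and the largest rises those of the galactose mutarotase GALM (1.08) and the hexose and inositol transporters SLC2A8 (0.51) and SLC2A13 (0.43). The pyruvate dehydrogenase complex and its pyruvate carriers were split, with 3 of 10 called higher and 3 lower (median 0.01). The carrier subunits MPC2 (0.61) and MPC1 (0.59) rose, as did the phosphatase regulator PDPR (0.22), whereas the complex's DLAT (-0.40), PDHB (-0.15) and DLD (-0.13) fell.

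Of 12 other gluconeogenic and shuttle genes measured, 4 were called higher and 5 lower. One of the 4, GPD1, with 3, 6 and 3 reads in DMSO and 10, 8 and 12 in fostamatinib, passed the read filter only through the fostamatinib samples, as did GPT, which was not called; both were singled out after their values were seen. In this list the alanine aminotransferase GPT2 fell from 56.5, 56.4 and 54.3 CPM to 32.4, 31.0 and 37.2 CPM (log2 fold change -0.74), followed by GPD2 (-0.39) and GOT2 (-0.22), enzymes of the mitochondrial glycerol phosphate and aspartate shuttles. MDH1 and SLC25A11 of the malate shuttle (both 0.24) and the glucose 6-phosphate carrier SLC37A4 (0.23) rose. In the pentose phosphate pathway, H6PD (0.40), the enzyme of the endoplasmic reticulum, was called higher. The non-oxidative branch was split, with TALDO1 (0.22) called higher and RPIA (-0.66), RPE (-0.49) and TKT (-0.25) called lower. Of 12 glycogen genes measured, 1 was called higher and 4 lower (median -0.05). UGP2 (-0.41), which makes UDP-glucose, and the glycogenin GYG1 (-0.39) and synthase GYS1 (-0.38) fell, and the liver glycogenin GYG2 (0.64) rose. Shares called in these lists can be read beside the 47.8% of all genes called.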

How the data were processed

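RNA-seq was performed on 3 DMSO and 3 fostamatinib samples (poly(A)-selected, directional libraries). Per the study's methods, the authors mapped reads to hg19 with HISAT and counted them with featureCounts on GENCODE v22 (tool versions and strand setting are not given in the sources used here). The authors kept a gene where 2 or more samples of either group had 5 reads. The deposited values are log2 CPM, made by the authors from counts plus 0.5 and TMM-scaled library sizes. Every value gave a read number within 0.05 of a whole one. These recovered reads gave the depth, 13303451 to 15272737 per sample, which excludes removed genes; intervals from reads cover counting error only.

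Models were fitted to the log2 CPM of 16305 genes (1 gene given in several rows was used once) with limma 3.58.1 (R 4.3.3; lmFit, eBayes with trend), with no term but treatment, and p-values were adjusted by Benjamini-Hochberg; the script was first tested on simulated data. Exact permutation tests, shares and figures used Python 3.11.15 with scipy 1.17.1. Exon lengths came from GENCODE v44 mapped to GRCh37 and promoters from RefSeq GRCh38.p14. Members and lists were chosen with earlier results of these data known. From each list outside the 38, the 3 largest changes called in each direction were named, given at least 50 reads in a group and no overlap, and all regulators; 1 gene that meets this rule is not reported here. Alternatives covered scaling, offset, filters, limma-voom, treat, a limit of 1 expected false positive, replicate block and leaving out samples.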

Additional observations from a re-analysis of the deposited data

How the results depend on the processing

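Counts of calls depended mainly on the threshold and, at the same threshold, on the variance model. Without the mean-variance trend, 6382 genes were called (3095 higher, 3287 lower), with 23 members among them. With limma's treat at a 1.2-fold minimum, 2977 genes were called (1386 higher, 1591 lower) with 19 members among them, and at 1 expected false positive 4136 (1892 higher, 2244 lower), with 19 members, 3 of them higher. Leaving out 1 sample at a time gave 6958 to 7480 genes, 3306 to 3676 higher and 3634 to 3804 lower, and 23 to 25 members. No member's call changed direction under any alternative run. SLC16A3 became called lower in 8 settings, and ALDOC lost its call without the trend and without fostamatinib replicate 2 or 3. PKLR and SLC2A2 gave no value under filters of 10 reads in every sample or of 5 reads in both groups. The same replicate numbers appear in both groups, but deviations of same-numbered samples correlated at 0.0278, -0.0192 and 0.0132, so they were not taken as pairs. With the replicate block, 7977 genes and 25 members were called. In an exact sign-flip permutation test over these pairs, the ratios of PFKL to PFKM and to PFKP had p = 0.25, the smallest that 3 pairs allow. Of the scalings, library size alone moved the median of all genes the most, by -0.0111 (log2). At this depth, genes with under 50 reads carried wide intervals, and 3 samples a group set the smallest p-value of the exact tests. The limma p-values also draw on the variance of other genes and depend on that model. Without the mean-variance trend, the limma adjusted p of HK1 was 0.000475 in place of 6.43e-18.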
